A study of Platynereis dumerilii with 97 samples.

Results

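Late gastrulae of the marine annelid Platynereis dumerilii were compared with younger gastrulae: 5 single embryos labelled 18, 19, 20, 22 and 23 h after fertilization were set against 5 labelled 13, 14, 15, 16 and 17 h. These 10 embryos were chosen by their labelled age among 97 in the series, and all belong to the first 50 libraries by label number, the first library series. The library labelled 21 h was left out for its unusual profile. Whole embryos from several matings, with no treatment or genotype named, were kept at 18 °C and frozen singly, and polyadenylated RNA was read by CEL-Seq, which tags 3' ends and amplifies them by in vitro transcription. The labels name neither the mating an embryo came from nor a batch, so embryos of 1 window may share parents and p-values measure the spread between these embryos. No embryos share an hour: the spread within a window holds development as well as differences between embryos.

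Platynereis is a spirally cleaving worm whose gastrula forms as small animal cells spread over large yolky vegetal cells. Eggs carry maternal RNA that serves the first divisions. During cleavage and gastrulation part of it is degraded while the embryo's own genome takes over, and the swimming trochophore larva with its ciliary band follows. The stage name rests on the labelled hours alone. The deposited table pairs its identifiers with no gene name, so gastrula markers could not be looked up, transcripts are grouped below by their history in other embryos, and only 2 that rose and 2 that fell are named, beside the most abundant one.

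Transcript totals were 264217 to 670991 counts at 18-23 h against 465169 to 1059582 at 13-17 h. The library labelled 21 h held 322498 counts, 70.6% of them from a single transcript. Its profile, over 6015 transcripts, correlated with those of the 10 embryos at a mean r of 0.539, against 0.647 to 0.752 for each of the 10 with the others. The library labelled 15 h also stood apart in 1 respect: 33 transcripts had at least 10 counts in it and none in any other embryo of 13-23 h, against 0 to 6 in each of those. They took 2.09% of its counts outside the most abundant transcript.

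Transcript levels changed with age across these hours, with more rises than falls among the transcripts called when libraries were scaled to each other. The median log2 change between the windows over all transcripts tested was -0.06. At an unadjusted p under 0.05 (edgeR) falls outnumbered rises in some settings. A single fit over all windows gave 489 higher and 537 lower, and the total as a covariate 128 and 131. The hour as a continuous term with no filter on low counts gave 647 and 755. Spike-in scaling, given further on, also reversed the balance. In the remaining settings of both comparisons rises outnumbered falls. Between the windows as blocks, 2 of 3912 transcripts tested were higher at 18-23 h and 0 were lower, 0.0511% of those tested (edgeR quasi-likelihood test, Benjamini-Hochberg adjusted p under 0.05). At an unadjusted p under 0.05 there were 282 higher and 167 lower, 7.21% and 4.27% of those tested, and DESeq2 called 90 higher and 28 lower, 3.74% of the 3151 to which it gave an adjusted p. Leaving out 1 embryo gave 0 to 49 calls, 49 without that of 18 h and 17 without that of 19 h. With the hour as a single continuous term over the same 10 embryos, 166 transcripts rose with age and 31 fell, 4.24% and 0.792% of those tested and 5.04% in both directions (edgeR, adjusted p under 0.05). The hour term called 58 without the embryo of 23 h and 128 without that of 14 h. Blocks and hour describe the same embryos, so neither count is independent of the other.

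The 2 transcripts called between the windows had neighbouring identifiers and nearly equal counts. PT_v1_tr_03062 stood at 369, 306, 1204, 567 and 855 CPM (counts per 1000000 of the scaled total) in the embryos of 18, 19, 20, 22 and 23 h, against 65.8, 74.3, 148, 121 and 188 CPM at 13, 14, 15, 16 and 17 h. Every older embryo lay above every younger one, the highest being that of 20 h. The means were 660 ± 372 CPM at 18-23 h and 119 ± 51.0 CPM at 13-17 h (SD, n = 5 each), a log2 change of 2.45 (SE 0.41, adjusted p = 0.04771, edgeR).

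PT_v1_tr_03063 stood at 320, 323, 1177, 550 and 906 CPM at 18, 19, 20, 22 and 23 h, against 72.8, 101, 133, 127 and 189 CPM at 13, 14, 15, 16 and 17 h. Again no older embryo overlapped with a younger one. It averaged 655 ± 377 CPM at 18-23 h and 125 ± 43.2 CPM at 13-17 h (SD, n = 5 each), a log2 change of 2.38 (SE 0.39, adjusted p = 0.04771, edgeR). Over the 10 embryos the first identifier had 1777 counts and the second 1761, and the split between them varied from embryo to embryo by no more than counting noise (chi-square 6.22, p = 0.796 over the 10 embryos; chi-square 52.0, p = 0.398 over the first 50). The 2 identifiers are therefore not counted as separate findings. Among 1746 pairs of neighbouring identifiers with at least 100 counts each in the 10 embryos, 184 differed by no more than counting noise, 10.5% of the pairs.

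Among the other windows of the first 50 embryos, both identifiers were lower at 1-12 h than at 25-51 h. The median level of PT_v1_tr_03062 was 66.6 CPM at 1-4 h, 49.1 CPM at 5-8 h and 67.9 CPM at 9-12 h, on a scale fitted over the first 50 embryos. It was 561 CPM at 25-30 h, 608 CPM at 31-36 h, 675 CPM at 37-42 h and 549 CPM at 43-51 h. At 25-30 h it was higher than at 9-12 h by a log2 change of 2.98 (SE 0.40, adjusted p = 0.0001457, edgeR), in embryos that the block comparison did not use. Single libraries and later stages did not share that level, in CPM of plain totals. PT_v1_tr_03062 and PT_v1_tr_03063 had 24.8 and 71.3 CPM in the library labelled 21 h, and both had 0 counts of 632077 in the embryo labelled 24 h, which lies outside the first 50. The medians of PT_v1_tr_03062 in later embryos were 339 CPM at 52-58 h, 175 CPM at 59-65 h, 203 CPM at 66-74 h, 46.2 CPM at 75-84 h and 36.4 CPM at 85-94 h, with 0 counts in 5 of the 20 embryos of 75-94 h.

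The call of PT_v1_tr_03062 and PT_v1_tr_03063 between the windows was narrow: the adjusted p ran from 0.0125 to 0.186 as each embryo was left out, and it exceeded 0.05 without the embryo of 13, 14, 15, 16, 20, 22 or 23 h. For PT_v1_tr_03062 the hour term gave 0.0007483 (edgeR) and stayed below 0.05 without any 1 embryo.

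**Figure D1:**
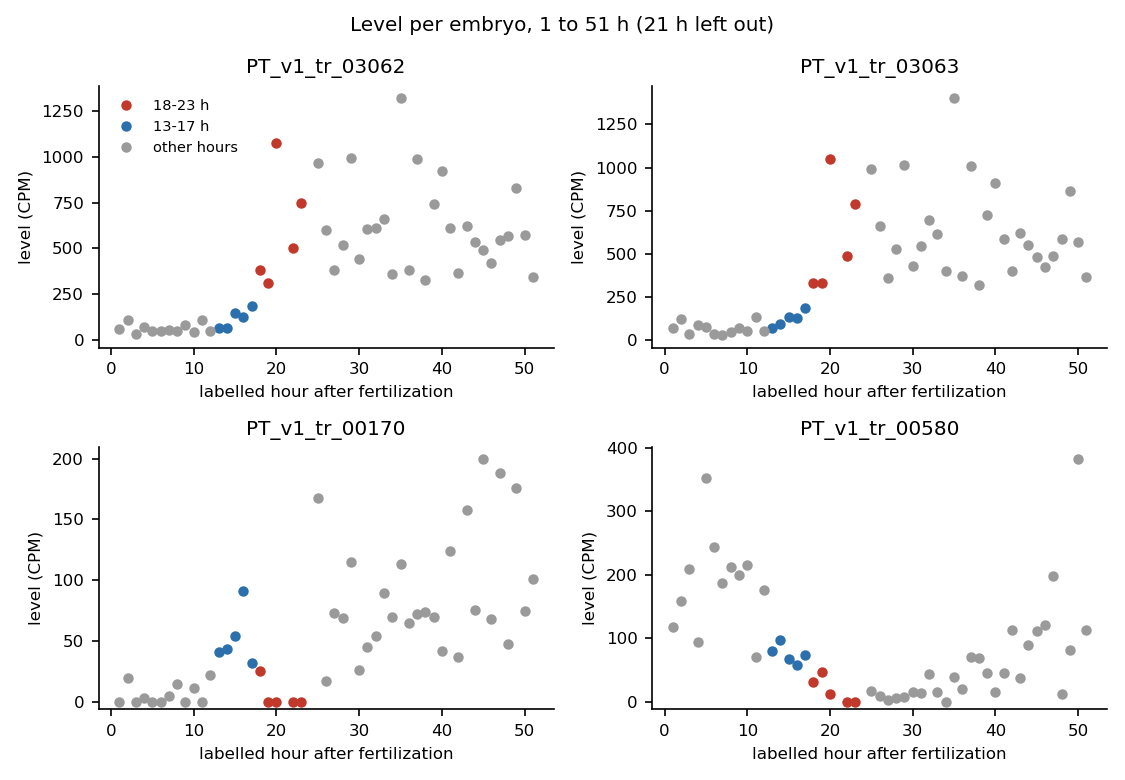
Level of the 4 named transcripts in single embryos (CPM on a scale fitted over the first 50 embryos) against labelled hour, 1 to 51 h, without the library labelled 21 h. The 5 embryos of 18-23 h (red) lie above the 5 of 13-17 h (blue) for PT_v1_tr_03062 and PT_v1_tr_03063 and below them for PT_v1_tr_00170 and PT_v1_tr_00580.

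A further 7 transcripts missed the threshold between the windows by little, each with an adjusted p of 0.05437 (edgeR), and all were higher at 18-23 h, with log2 changes from 1.91 to 6.72. Their values did not overlap between the windows. The one with the largest change had 383 counts in the 5 older embryos and 7 in the 5 younger ones. In all, the values of 66 transcripts lay wholly higher at 18-23 h and those of 55 wholly lower, 1.69% and 1.41% of those tested and 3.09% together.

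No fall passed between the windows, so falls of the hour term are described, picked after their values were seen. They are the 2 largest with at least 50 CPM in the higher window and no overlap between the windows, the conditions set for the rises. PT_v1_tr_00580 stood at 30.1, 46.1, 13.6, 0 and 0 CPM at 18, 19, 20, 22 and 23 h, against 81.4, 106, 67.2, 56.1 and 75.4 CPM at 13, 14, 15, 16 and 17 h. The lack of overlap was a condition of the choice. Both of the oldest embryos had no count. Those 2 libraries had the lowest totals of the 10, 264217 and 318364 counts. The means were 18.0 ± 20.0 CPM at 18-23 h and 77.2 ± 18.6 CPM at 13-17 h (SD, n = 5 each).

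With the hour as the term, PT_v1_tr_00580 fell by 2.57 on the log2 scale over the 5.4 h between the mean ages of the windows (SE 0.64, adjusted p = 0.03004, edgeR). Between the windows as blocks the log2 change was -1.95 (SE 0.72, adjusted p = 0.289, edgeR). Before these windows the transcript had medians of 138 CPM at 1-4 h, 227 CPM at 5-8 h and 188 CPM at 9-12 h. It was at 8.33 CPM at 25-30 h and 18.5 CPM at 31-36 h, and then at 56.7 CPM at 37-42 h and 112 CPM at 43-51 h. Its hour call ended without the embryo of 14, 15, 20, 22 or 23 h (adjusted p from 0.05683 to 0.1263, edgeR).

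PT_v1_tr_00170 was counted in every younger embryo and in 1 of the older ones, and was counted again later. It had 24.8 CPM at 18 h and 0 at 19, 20, 22 and 23 h, against 41.6, 47.3, 54.0, 88.5 and 32.3 CPM at 13, 14, 15, 16 and 17 h. It fell by 3.93 on the log2 scale over the hour term (SE 1.07, adjusted p = 0.04824, edgeR), and its log2 change between the windows as blocks was -3.06 (SE 0.97, adjusted p = 0.21, edgeR). In contrast to PT_v1_tr_00580 it was scarce before, with a median of 5.55 CPM at 9-12 h, and back at 71.2 CPM at 25-30 h, with counts in all 6 embryos there. Leaving out any 1 embryo other than that of 13 or 18 h ended its hour call (adjusted p from 0.05592 to 0.1784, edgeR).

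**Figure D2:**
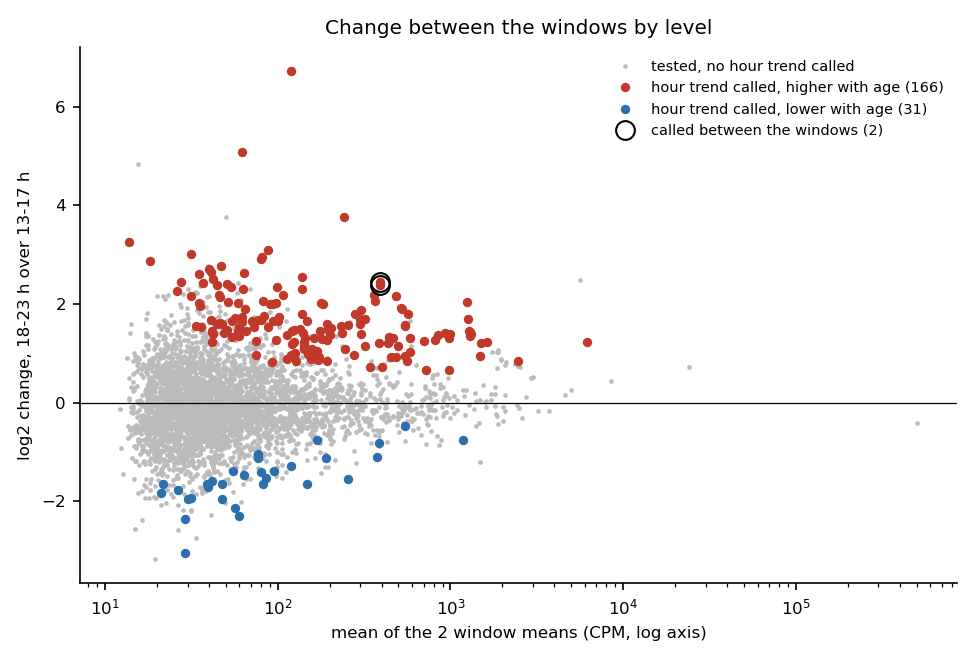
Log2 change between the windows (18-23 h over 13-17 h, edgeR) against the mean level of the 3912 transcripts tested (CPM, log axis). Red points are the 166 transcripts that rose with the hour, blue points the 31 that fell, and circles the 2 called between the windows. The median change over all transcripts tested was -0.06, with the transcripts that rose with the hour at a median of 1.50 and those that fell at -1.60.

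The 166 transcripts that rose with the hour had a median log2 change of 1.50 between the windows, and 143 of them at least doubled, against a median of -0.06 over all transcripts tested and 382 of 3912 that doubled. For the 31 that fell the median was -1.60, and 27 were at least halved, against 314 of all tested. These sizes describe the transcripts that the hour term had picked in the same embryos. Of the 197, 16 formed 8 neighbouring pairs that differed by no more than counting noise, which leaves 189 if each pair is counted once.

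Together the 166 rising transcripts took a larger part of the counts outside the most abundant transcript in older embryos: 4.28% at 13 h, 4.90% at 14 h, 4.91% at 15 h, 6.73% at 16 h and 7.35% at 17 h, and then 7.23% at 18 h, 8.87% at 19 h, 12.8% at 20 h, 14.7% at 22 h and 19.0% at 23 h. The gain was not that of a single transcript, since without the largest the list's mean share was 11.1% at 18-23 h against 4.94% at 13-17 h. The largest held 11.2% of the list's share at 18-23 h and the 19 largest held more than 50%. The 31 falling transcripts went down from 1.61% at 13 h to 0.201% at 23 h. The direction in these 10 embryos is fixed by the choice of the transcripts. In embryos not used for the choice, the rising transcripts took a median of 0.818% at 1-4 h, 0.939% at 5-8 h, 2.54% at 9-12 h, 6.92% at 25-30 h, 6.12% at 31-36 h, 5.24% at 37-42 h and 4.92% at 43-51 h. The highest embryo of 25-30 h had 10.9%, so the shares of 20, 22 and 23 h were not reached there.

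Most of the rising transcripts were scarce in the youngest embryos and most of the falling ones were abundant there. Levels at 1-4 h, in 4 embryos that the comparison did not use, describe the supply of the earliest stages, when RNA is largely maternal. Of the 31 that fell, 23 stood at 50 CPM or more at 1-4 h, or 74.2%, against 35.3% of all transcripts tested. Of the 166 that rose, 16 did so, or 9.64%, while 23 had no count at 1-4 h, or 13.9%, against 5.34% of all tested. In all 12 embryos of 1-12 h, 3 of the 166 had no count, or 1.81%, against 7 of all 3912 tested, or 0.179%. None of these shares is matched for level. In the younger window the falling list had a median of 100 CPM, the rising list 77.0 CPM and all tested 44.8 CPM. A list with a higher level there can hold more transcripts above a fixed limit at 1-4 h, whatever their direction. How much of the 74.2% this accounts for was not tested.

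The same contrast held across all transcripts tested, whether called or not. Those at 50 CPM or more at 1-4 h had a median log2 change of -0.18 between the windows (34.1% of 1380 positive). Transcripts counted at 1-4 h below 50 CPM had a median of 0.02 (51.1% of 2323 positive), and those with 0 counts at 1-4 h a median of 0.59 (66.0% of 209 positive). A transcript with no count at 1-4 h had to rise at some age to pass the filter on low counts, so its share of rises is not set against chance.

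The direction of both lists was then read in embryos on either side of the windows, 6 of 25-30 h against 4 of 9-12 h, none of which enters the comparison. There 823 of 5347 transcripts were higher and 620 lower, 15.4% and 11.6% of those tested (edgeR, adjusted p under 0.05). Of the 162 rising transcripts tested there, 102 were higher at 25-30 h than at 9-12 h and 0 lower, or 63.0%, against 15.8% of the 3771 tested in both fits. Of the 31 falling ones, 18 were lower, or 58.1%, against 12.4% of those tested in both fits, and 1, PT_v1_tr_00170, was higher (log2 change 2.99, SE 0.87, adjusted p = 0.01845, edgeR). These shares are not matched for level, and changes at higher levels are easier to call. The rising list had a median of 202 CPM at 18-23 h, against 43.8 CPM for all tested. The shares also depended on the scaling. With total-count scaling 143 of the 162 rising transcripts were higher, or 88.3%, against 34.2% of all tested in both fits, and 12 of the 31 falling ones were lower, or 38.7%, against 5.04%. With spike-in scaling the rising transcripts were higher in 81.5% of cases against 25.1%, and the falling ones lower in 35.5% against 4.59%. The medians over all transcripts tested in both fits were 0.92 and 0.86 under total-count and spike-in scaling, against 0.16 with the main scaling. Among the other windows of the first 50 embryos, 106 of the 166 rising transcripts had their highest median level at 25-30 h, or 63.9%, against 22.1% of all tested.

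**Figure D3:**
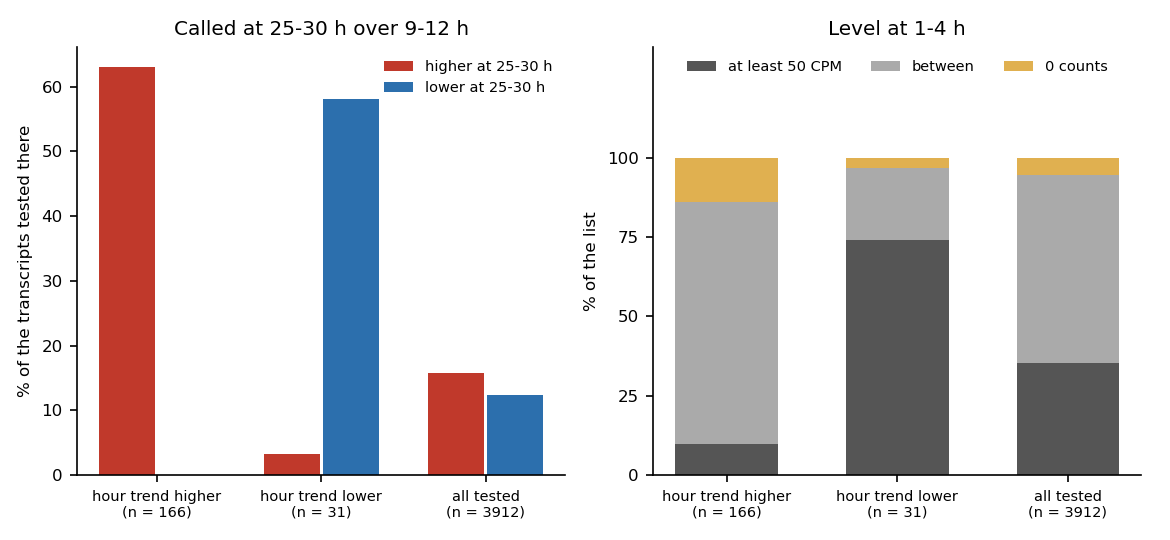
Left, share of each list that was called higher (red) or lower (blue) at 25-30 h than at 9-12 h, in embryos outside the comparison; right, share of each list by level at 1-4 h. Rising transcripts were called higher at 25-30 h in 63.0% of cases and falling ones lower in 58.1% under the main scaling, and 74.2% of the falling transcripts stood at 50 CPM or more at 1-4 h.

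As whole profiles the older embryos correlated less with 9-12 h than the younger ones did, while correlations with 25-30 h overlapped. For each embryo, thinned to 176752 counts outside the most abundant transcript, the correlation with the pooled profile of 9-12 h was subtracted from that with the pooled profile of 25-30 h, over 8017 transcripts. The difference was 0.113, 0.0818, 0.101, 0.102 and 0.156 at 18, 19, 20, 22 and 23 h, against -0.0552, -0.0345, -0.0139, 0.0566 and -0.0154 at 13, 14, 15, 16 and 17 h. All 5 older embryos were closer to 25-30 h than to 9-12 h. Of the 5 younger ones 4 were closer to 9-12 h, that of 16 h being the exception. The correlation with 9-12 h was 0.584 to 0.739 at 18-23 h and 0.767 to 0.817 at 13-17 h. That with 25-30 h was 0.741 to 0.842 at 18-23 h and 0.744 to 0.823 at 13-17 h, so the windows overlapped. The embryo of 23 h had the largest difference and the lowest correlation with 25-30 h. The means were 0.111 ± 0.0278 at 18-23 h and -0.0125 ± 0.0421 at 13-17 h (SD, n = 5 each; p = 0.00794, the smallest that 5 against 5 allow; adjusted p = 0.0476 over 6 measures, two-sided exact permutation test).

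Embryos of 1-8 h lay between -0.249 and -0.229 on this measure and those of 31-51 h between 0.198 and 0.273. The 10 embryos lay between these ranges. Leaving out any 1 of the 5 older embryos kept the difference at 0.111 or more but took the adjusted p to between 0.0714 and 0.0952 (exact permutation test), while without any 1 of the younger ones it stayed at or under 0.0476. With groups of unequal size, splits in the opposite direction can exceed the observed difference. This contrast therefore does not tell on which embryos the separation rests. The library labelled 21 h, at -0.0133, fell within the range of the younger window, but its correlations with both profiles were low. They were 0.576 with 25-30 h and 0.589 with 9-12 h. It held 94681 counts outside the most abundant transcript, fewer than the number to which the 10 embryos were thinned.

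**Figure D4:**
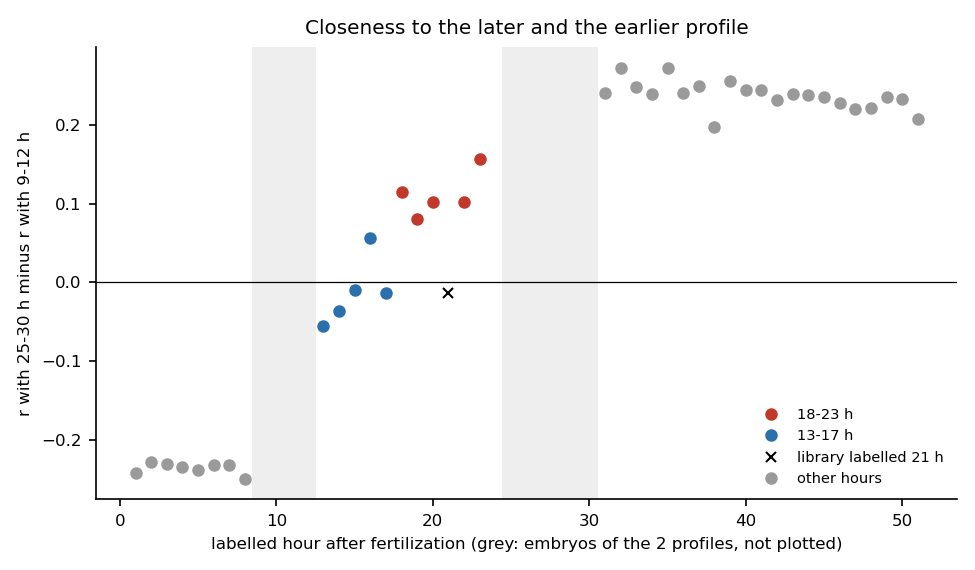
Correlation of each embryo with the pooled 25-30 h profile minus that with the pooled 9-12 h profile (log2 CPM, at most 176752 counts per embryo) against labelled hour; grey bands mark the embryos of the profiles, which are not plotted. The embryos of 18-23 h (red) lie between 0.0811 and 0.157 and those of 13-17 h (blue) between -0.0552 and 0.0565, in a separate random draw of the counts.

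The other measures per embryo missed the threshold. PT_v1_tr_02502, the most abundant transcript, took 41.2%, 39.7%, 49.8%, 33.1% and 43.1% of transcript counts at 18, 19, 20, 22 and 23 h, against 35.7%, 60.4%, 47.9%, 54.2% and 56.3% at 13, 14, 15, 16 and 17 h. The windows overlapped, with the embryo of 13 h below 4 of the 5 older ones. The means were 41.4% ± 6.02 at 18-23 h and 50.9% ± 9.64 at 13-17 h (SD, n = 5 each; adjusted p = 0.206, exact permutation test).

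Transcripts at 50 CPM or more at 1-4 h made up 62.7% ± 1.28 of counts outside the most abundant transcript at 18-23 h and 65.7% ± 2.01 at 13-17 h (SD, n = 5 each; p = 0.0238, adjusted p = 0.0714, exact permutation test). Only the embryo of 15 h, at 63.1%, fell within the older range of 60.8% to 64.1%. The difference of -2.96 percentage points exceeded the SD of either window and did not pass the test over 6 measures. Without the embryo of 15 h it was -3.60 percentage points (adjusted p = 0.0238, exact permutation test), and with the library labelled 21 h added it was 0.384 (adjusted p = 0.996, exact permutation test). With 200 CPM in place of 50 CPM as the limit it was -0.746 (adjusted p = 0.484, exact permutation test).

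Transcripts with no count at 1-4 h made up 3.33% ± 0.351 at 18-23 h and 2.87% ± 0.993 at 13-17 h (SD, n = 5 each; adjusted p = 0.349, exact permutation test). This result turned on the embryo of 15 h. It reached 4.58%, the highest of all 10, and without it the older window was higher by 0.89 percentage points (adjusted p = 0.0317, exact permutation test). The other 4 younger embryos lay between 2.07% and 2.71%, all below the older range of 2.89% to 3.74%.

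Counts of all other transcripts per spike-in count were 2.74 ± 1.01 at 18-23 h and 3.44 ± 0.538 at 13-17 h (SD, n = 5 each; adjusted p = 0.257, exact permutation test). The older window was itself uneven, from 4.22 at 18 h through 2.34 at 20 h to 1.72 at 23 h. Transcripts detected at equal depth likewise numbered 6763 ± 820 at 18-23 h and 7345 ± 295 at 13-17 h (SD, n = 5 each; adjusted p = 0.25, exact permutation test), with 7655 at 18 h and 5584 at 23 h. The embryos of 22 and 23 h had the lowest totals of the 10, 264217 and 318364 counts, and without both the difference was -0.15 for transcripts per spike-in count and -62.5 for transcripts detected, against -0.699 and -581 with all 10 embryos. Without both the hour term called 22 transcripts in place of 197. With the total as a covariate it called 51.

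**Figure D5:**
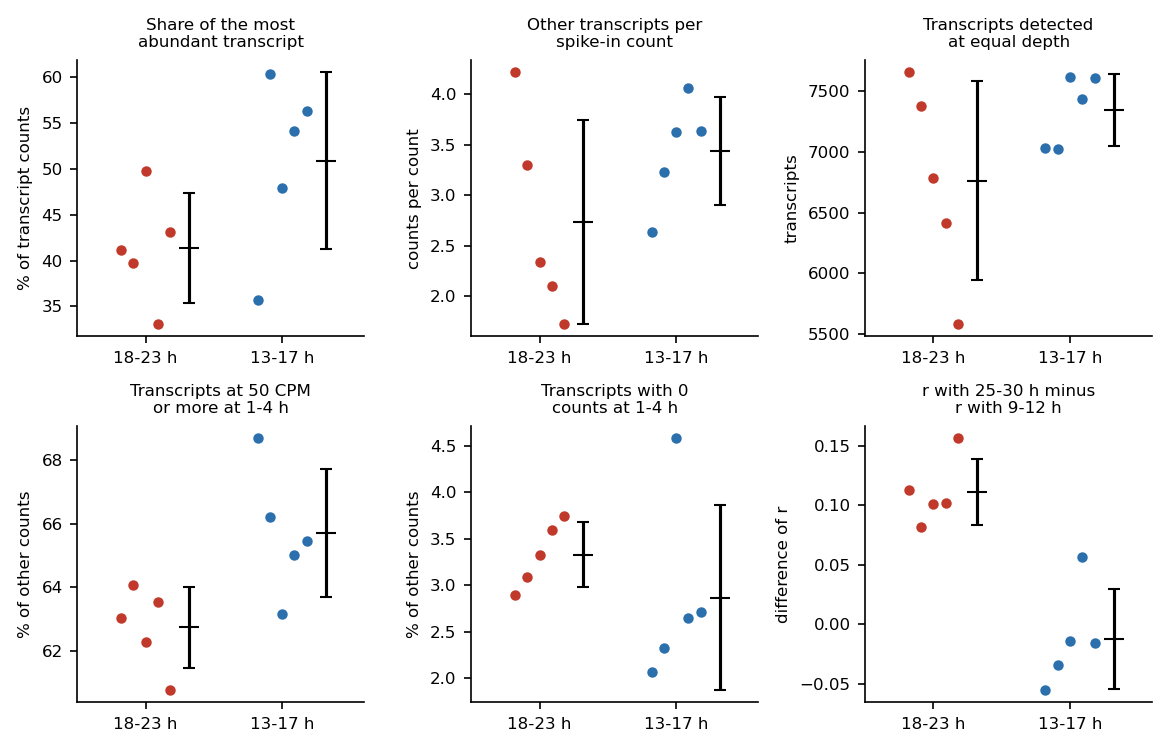
The 6 measures per embryo, with 18-23 h (red) left of 13-17 h (blue); points run in order of hour within a window, and bars give the mean and SD over 5 embryos. The difference of correlations separates the windows, while the other 5 measures overlap.

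Inside the windows, few transcripts passed the test for a change by the hour, which had only 5 embryos in each window. With the window as a term and the hour centred in each window, 9 transcripts rose with the hour and 0 fell, 0.23% of the 3912 tested (edgeR, adjusted p under 0.05), with 203 higher and 129 lower at an unadjusted p under 0.05 and 64 higher and 18 lower by DESeq2. Without the embryo of 17, 18 or 19 h the count was 0, without that of 23 h it was 1 and without that of 20 h 14. Total-count scaling gave 0, with 103 higher and 265 lower at an unadjusted p under 0.05 (edgeR). Slopes of PT_v1_tr_03062 and PT_v1_tr_03063 within the windows were both 0.27 on the log2 scale per hour (SE 0.11 and 0.10, adjusted p = 0.4718 and 0.4373, edgeR), which did not pass the test.

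Rises and falls are relative to the rest of each library. Between the windows, spike-in scaling gave a median log2 change of -0.45, no call, and 50 higher and 273 lower at an unadjusted p under 0.05 (edgeR). Scaled to the spike-ins, the median log2 change over the hour term was -0.70 for all transcripts tested, against -0.09 with the main scaling, and no transcript was called (80 higher and 757 lower at an unadjusted p under 0.05, edgeR). Of the 166 rising transcripts 165 stayed positive under that scaling, with a median of 0.79. All 31 falling ones stayed negative, with a median of -2.28. A change of scaling shifts all transcripts of an embryo alike, so these signs were nearly fixed by the choice of the lists. With the main scaling the rising ones had changes of 0.62 or more and the falling ones of -0.79 or less. Fewer cells with a transcript and less of it per cell cannot be told apart in a whole embryo.

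Of 10908 transcripts listed, 6996 did not pass the filter on low counts, and 648 had no count in the 10 embryos. Among all listed, 74 had no count in the 5 younger embryos and at least 10 in the older ones, and 148 the reverse. The older embryos gave 1361750 counts outside the most abundant transcript and the younger ones 1809654. Only 1 of the 74 was counted in all 5 older embryos, and 11 of the 148 in all 5 younger ones.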

How the data were processed

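Single embryos were profiled by CEL-Seq, per the labels' protocols. The authors deposited unnormalized counts, whole numbers listed by transcript and embryo. CASAVA 1.8, Bowtie2 2.1.0 and HTSeq 0.5.4p3 are named in the submitters' processing notes; their roles, settings and the strand used are not given in the sources used here. No molecular identifiers are named, so counts can hold amplification copies, and depth-based statements cover counting error only. The 92 spike-ins and 5 summary rows stayed out of totals and tests; reads not aligned were 48.5% to 64.1% of all counts in the 10 embryos, and reads of no feature 1.78% to 2.46%. No 2 of the 10 embryos had identical counts.

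Windows were compared with edgeR 4.0.16 (R 4.3.3; quasi-likelihood, robust, TMM scaling, filterByExpr), adjusted by Benjamini-Hochberg over all transcripts tested; DESeq2 1.42.0 was an alternative. Standard errors were derived from the log2 change and the F statistic. Hour-term changes are given per 5.4 h. CPM use TMM-scaled totals; levels at 1-4 h use plain pooled totals. The profile correlations used log2(CPM + 10) and transcripts with at least 10 CPM in either profile. Permutation tests were exact and two-sided (Python 3.11.15, numpy 2.4.6, scipy 1.17.1, pandas 2.3.3; matplotlib 3.10.9). Named transcripts were the 2 largest rises and falls past the threshold with at least 50 CPM in the higher window and no overlap. Each fit was tested on simulated counts.

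The embryos, lists and tests were chosen with earlier results of these data known. The hour term was planned as an alternative; presenting it as a result, the profile correlations, the named falls and the scaling of the lists at 25-30 h over 9-12 h were added after the data were seen.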

Additional observations from a re-analysis of the deposited data

Results flagged for a closer look

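Outliers were sought in 20 sets of 5 embryos, of which chance flags about 1 in 20, and 2 were found. The embryo of 15 h, at 4.58%, lay far above the other 4 of 13-17 h in the share of transcripts with no count at 1-4 h. PT_v1_tr_00170 had 24.8 CPM at 18 h and 0 in the other 4 embryos of 18-23 h. With 4 equal values of 0, in a transcript picked for its fall, the stated chance rate need not hold for this flag.

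The library labelled 21 h, which was left out of the main comparison, exceeded every embryo of 13-17 h in 2 measures. PT_v1_tr_02502 took 70.6% of its transcript counts, and transcripts at 50 CPM or more at 1-4 h took 82.8% of its other counts.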

How the results depend on the processing

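No paired analysis was possible because the labels give the windows no shared replicate numbers. The 2 calls between the windows, both rises, became 118 (90 higher, 28 lower) with DESeq2, 40 (40 higher) with total-count scaling, 39 (34 higher, 5 lower) with no filter on low counts, 35 (33 higher, 2 lower) without the border hours 17 and 18 h, 63 (43 higher, 20 lower) in 1 fit over all windows of the first 50 embryos, and 197 (166 higher, 31 lower) with the hour as a continuous term. They became 0 (0 higher) with DESeq2 size factors, spike-in scaling, the 21 h library added, the total as a covariate or 22 and 23 h left out. Leaving out 1 embryo gave 0 to 49 calls, 0 to 47 higher and 0 to 2 lower. Both identifiers were among the calls in every setting with 2 or more, and kept their direction in all settings run. A filter of 10 CPM in 5 embryos proved looser than the main one (5137 transcripts) and gave 2 calls.

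The hour term called 387 with DESeq2, 0 with spike-in scaling, 35 with the 21 h library added, 51 with the total as a covariate, 22 without 22 and 23 h, and 58 to 198 without 1 embryo: 58 without that of 23 h, 51 of them among the 197, and 128 without that of 14 h. The slope inside windows gave 82 calls with DESeq2, 0 with total-count scaling or the 21 h library added, 14 with no filter and 0 to 14 without 1 embryo. Calls at 25-30 h over 9-12 h ran from 1154 to 1601 without 1 embryo; their 823 higher and 620 lower became 1687 and 260 with total-count and 1268 and 231 with spike-in scaling.

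The difference of profile correlations was 0.101 with the 21 h library added (adjusted p = 0.0909), 0.121 without border hours (0.171) and 0.112 without 22 and 23 h (0.107), and 0.111 to 0.14 without 1 embryo (0.0238 to 0.0952, exact permutation tests). Without border hours or without 22 and 23 h the smallest p is larger, so those 2 losses say little about stability. With 1 embryo left out the smallest p is no larger than with all 10, and the adjusted p exceeded 0.05 without any 1 of the older embryos. The groups are then of unequal size, and splits in the opposite direction can exceed the observed difference and raise the p. With all 10 embryos the windows did not overlap (0.0818 or more against 0.0566 or less). The adjusted p alone therefore does not tell how stable the separation is. The share of transcripts unseen earlier was higher at 18-23 h by 0.153 percentage points when those with 0 counts at 1-12 h were taken (adjusted p = 0.0476, exact permutation test); for 0 counts at 1-4 h the difference was 0.261 to 0.89 without 1 embryo. Without 1 embryo the maternal share differed by -3.60 to -2.22 percentage points, the most abundant share by -13.3 to -7.16, transcripts per spike-in count by -1.07 to -0.446 and detection by -804 to -287. The cause of these changes was not tested. Depth limits low transcripts most in the embryos of 22 and 23 h, whose totals were 264217 and 318364 counts.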

Other observations

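The transcript with the most counts among the 33 found at 13-23 h in the embryo of 15 h alone had 1577 counts there. Outside 13-23 h, 3 of 86 embryos had a count of it, at most 31. Of the 33, 28 had no count at 25-30 h, 13 had none at 1-12 h and 22 were counted in at least 1 of the 86.

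PT_v1_tr_00170 was 1 of 5 transcripts with no count in any embryo of 19-23 h, that of 21 h included, and counts in every embryo of 13-18 h and of 25-30 h. In all, 4203 transcripts were counted in every embryo of 13-18 h and of 25-30 h.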
